A study of Homo sapiens with 6 samples.

Results

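The genes described here are 9 components of MHC class I antigen presentation, namely HLA-B, HLA-C, HLA-E, B2M, TAP1, TAP2, TAPBP, PSMB8 and PSMB9. They were taken by gene name from a table of 21494 genes, all 9 had a row, and all 9 were among the 16756 genes that passed the filter on low counts. RNA-seq had been carried out on 3 samples with a control shRNA (Control sh) and 3 samples in which the shRNA targeted DCAF1, the gene of VprBP (VprBP sh), to ask which genes depend on VprBP in melanoma cells. By the labels all 6 samples are G361 cells, a human melanoma line, although the source name of every sample is LD611. The genotype is WT in Control sh and DCAF1 Knockdown in VprBP sh. By the methods of the study, the shRNA was delivered with a pLKO.1 lentiviral vector and the cells were selected with puromycin, so that each group is a stably selected population. The labels name no separate cultures, and the p-values therefore measure the spread between samples that may be technical replicates.

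Class I molecules display peptides from inside the cell to CD8 T cells. Each consists of a heavy chain (HLA-B, HLA-C and the less variable HLA-E among others) bound to B2M, the invariant light chain. The peptides are cut by the proteasome, pumped into the endoplasmic reticulum by TAP1 and TAP2, and loaded with the help of tapasin (TAPBP). In the immunoproteasome PSMB8, PSMB9 and PSMB10 take the place of the catalytic subunits PSMB5, PSMB6 and PSMB7. Most of these genes lie in the MHC on chromosome 6 and are inducible by interferon, and loss of their expression is a well-known route by which melanomas and carcinomas escape T cells.

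In VprBP sh, 7 of the 9 genes were lower than in Control sh and 2, HLA-E and PSMB8, differed by less than the spread between replicates. PSMB9, TAP1, HLA-B and TAP2 showed the larger decreases, from 2.69-fold to 4.77-fold, whereas HLA-C, TAPBP and B2M were lower by 1.74-fold to 1.83-fold. Of the 9 genes, 4 were called lower and 0 higher by edgeR's quasi-likelihood test, a call requiring more than 2-fold and p under 0.05 after Benjamini-Hochberg adjustment. The groups differed widely, however, with 46.4% of all genes tested called in either direction, 22% lower and 24.5% higher. The median log2 fold change was -0.87 over the 9 genes and 0.08 over all genes tested. Without a minimum fold, 7 of 9 were lower and 0 higher at an adjusted p-value under 0.05. Of all genes, 76.4% passed this threshold in either direction, so that passing it was common in these samples. The groups did not overlap for these 7, against 79.5% of all genes, 37.3% with VprBP sh below and 42.2% with VprBP sh above. Values are normalized counts, which are estimated read counts scaled by the upper quartile method, and are given as mean ± SD with n = 3 in each group.

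Total estimated counts ran from 18195949 to 26883948 per sample. DCAF1, the gene targeted by the shRNA, had 797, 971 and 838 normalized counts in the Control sh samples, against 760, 507 and 481 in the VprBP sh samples, a log2 fold change of -0.58 with a standard error of 0.17 (adjusted p = 0.0125 from edgeR) and not a call. VprBP sh replicate 1 lay near the Control sh samples, and without it the log2 fold change was -0.82, while scaling by library size alone gave -0.37 (adjusted p = 0.0851 from edgeR). An exact two-sided permutation test of these values gave p = 0.1, below which 3 samples against 3 cannot go. Of 10 melanocyte lineage markers, 4 had a row in the table and only MITF and PMEL reached 10 counts in every sample, while TYR, DCT, SOX10 and S100B had no row, which goes against the melanoma label of both groups. The summed level of 9 urothelial markers was 104358 to 113953 normalized counts in the Control sh samples, against 25947 to 29196 in the VprBP sh samples. Most of these sums came from 2 keratins. KRT5 had 48190, 63704 and 73688 counts against 4524, 2582 and 3560, and KRT7 had 31763, 31453 and 36124 against 15710, 22804 and 30647. KRT20 and UPK3A had no row. Of the 8 markers tested, 5 were lower in VprBP sh and 3, GATA3, PPARG and UPK3B, were higher. Among them TP63 had 8715, 7670 and 8806 counts against 9, 8 and 13, while GATA3 had 7, 1 and 0 counts against 1580, 1334 and 1873. Markers of leukocytes, which express class I genes strongly, had a row for 4 of 14 and summed to 666 to 882 normalized counts in the Control sh samples, against 224 to 517 in the VprBP sh samples. Most of these sums came from CD14, with 710, 626 and 670 counts against 120, 456 and 544. CSF1R went the other way, with 28, 28 and 22 counts against 81, 40 and 67. ITGAM and ITGAX had at most 15 counts in a sample, and PTPRC and CD3E had no row. Fibroblast markers (5 of 8 with a row) summed to 768 to 809 and 459 to 602 normalized counts, and endothelial markers (6 of 6) to 698 to 723 and 221 to 248. The endothelial sums join genes that went opposite ways, CDH5 with 340, 480 and 530 counts against 1, 2 and 3, and ESAM with 1, 0 and 0 against 169, 203 and 238. Since lineage markers moved with the groups, an effect of the shRNA on the genes below and a difference between the cell populations cannot be told apart, nor can fewer cells of a kind and less RNA per cell. In each group replicates 2 and 3 resembled each other more than replicate 1, with a chi-square per degree of freedom of 2.50 and 2.36 against 17.6 to 29.1 for the pairs with replicate 1. The mitochondrial share of counts was 1.96% to 1.98% and 4.10% to 4.48% in these groups, and the part of this in the results was not tested.

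The stretches before the transcript starts are shown for 6 of the genes because class I promoters are known for elements that respond to interferon and NF-kappaB, and because TAP1 and PSMB9 start back to back. RefSeq promoter windows were found for 8 of the 9 genes, HLA-E having none among them. Each sequence below has the 250 bases before a RefSeq transcript start on build GRCh38.p14, read 5′ to 3′ on the strand of the gene. Capitals mark matches on either strand to the core of the interferon-stimulated response element (GAAA and GAAA with 2 bases between), GAANNGAAA (a shorter site for interferon regulatory factors), TTCNNNGAA (the GAS element of STAT factors) or GGGNNTTCC (a site of the NF-kappaB type).
HLA-B, chr6:31357180-31357429, minus strand: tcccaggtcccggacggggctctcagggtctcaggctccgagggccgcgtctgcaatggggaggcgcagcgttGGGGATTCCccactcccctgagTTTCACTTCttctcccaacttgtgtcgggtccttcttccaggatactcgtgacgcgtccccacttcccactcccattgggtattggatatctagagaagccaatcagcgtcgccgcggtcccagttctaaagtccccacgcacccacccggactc
HLA-C, chr6:31272093-31272342, minus strand: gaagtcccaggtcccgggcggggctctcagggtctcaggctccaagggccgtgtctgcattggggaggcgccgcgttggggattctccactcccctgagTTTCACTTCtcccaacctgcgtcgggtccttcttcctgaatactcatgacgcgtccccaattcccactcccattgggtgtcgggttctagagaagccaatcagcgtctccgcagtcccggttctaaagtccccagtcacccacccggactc
B2M, chr15:44711267-44711516, plus strand: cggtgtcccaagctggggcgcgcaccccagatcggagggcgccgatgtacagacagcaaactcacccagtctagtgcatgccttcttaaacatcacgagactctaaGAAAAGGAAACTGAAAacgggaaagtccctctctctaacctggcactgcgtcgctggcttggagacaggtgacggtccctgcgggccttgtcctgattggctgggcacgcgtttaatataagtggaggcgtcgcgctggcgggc
TAP1, chr6:32853705-32853954, minus strand: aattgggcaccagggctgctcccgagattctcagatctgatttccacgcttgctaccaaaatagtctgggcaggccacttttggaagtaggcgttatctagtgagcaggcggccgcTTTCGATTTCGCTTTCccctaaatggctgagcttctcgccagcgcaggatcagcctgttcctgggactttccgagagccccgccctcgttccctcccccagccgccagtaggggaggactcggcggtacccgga
PSMB9, chr6:32853942-32854191, plus strand: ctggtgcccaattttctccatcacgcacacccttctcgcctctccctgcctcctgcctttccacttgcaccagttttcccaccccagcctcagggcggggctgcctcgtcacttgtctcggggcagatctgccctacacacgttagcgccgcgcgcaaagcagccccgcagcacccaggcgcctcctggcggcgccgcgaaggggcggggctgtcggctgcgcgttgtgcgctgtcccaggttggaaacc
PSMB8, chr6:32844680-32844929, minus strand: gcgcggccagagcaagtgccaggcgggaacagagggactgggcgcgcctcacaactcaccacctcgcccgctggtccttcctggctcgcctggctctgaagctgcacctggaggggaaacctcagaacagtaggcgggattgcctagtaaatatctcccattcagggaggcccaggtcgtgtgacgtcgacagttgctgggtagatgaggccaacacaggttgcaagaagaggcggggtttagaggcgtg

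HLA-B had a match to the NF-kappaB type letters, GGGGATTCC, beginning 177 bases before its start, and a short interferon regulatory factor site beginning at 155 bases. HLA-C had the latter, at 151 bases, without the former. B2M had 2 overlapping matches to the interferon response core, beginning 144 and 138 bases before its start, and TAP1 had 2 beginning at 134 and 128 bases. The starts of TAP1 and PSMB9 face away from each other with 487 bases between them. The 250 bases before PSMB9 held none of the 4 letter patterns, nor did those before the start of PSMB8 shown above. The 2 core matches of TAP1 lie within the 487 bases between the starts, and so also upstream of PSMB9, beyond its 250-base window. A second RefSeq start of PSMB8 had the GAS letters beginning at 65 bases and an NF-kappaB type match at 164 bases, and a second start of TAP1 had the GAS letters at 189 bases. TAP2 had the core beginning at 58 bases and an overlapping short site at 63 bases, and TAPBP had the core at 20 and 14 bases and an NF-kappaB type match at 55 bases. Among 35116 RefSeq windows of the same length, 3.02% held the interferon response core, 6.56% the short site, 6.57% the GAS letters and 5.78% the NF-kappaB type letters. The NF-kappaB type letters were searched with 2 bases between GGG and TTCC alone, so a stretch with another base between them was not marked. The windows above hold such a stretch in lower case for TAP1 (gggactttcc) and, on the other strand, for B2M (ggaaagtccc). The matches are positions of letters and say nothing of the binding of a factor in these cells.

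Among the heavy chains, HLA-B (ENSG00000234745.14, chromosome 6, 31353872 to 31367067 on the minus strand of hg38) had 13620, 8428 and 8473 normalized counts in the Control sh samples, against 3179, 3906 and 3990 in the VprBP sh samples. Every VprBP sh sample lay below every Control sh sample, and Control sh replicate 1 was the highest. The means were 10174 ± 2985 and 3692 ± 446, a log2 fold change of -1.46 with a standard error of 0.19 (adjusted p = 6.13e-05 from edgeR), or 2.75-fold lower. HLA-C (ENSG00000204525.18, 31268749 to 31272130, minus strand), which presents peptides and is also a ligand of killer cell immunoglobulin-like receptors, had 18548, 13152 and 13375 normalized counts in the Control sh samples, against 6712, 9536 and 9400 in the VprBP sh samples. The groups again did not overlap, and the log2 fold change of -0.81 with a standard error of 0.17 (adjusted p = 0.00151 from edgeR) stayed under the 2-fold required for a call. HLA-E (ENSG00000204592.9, 30489509 to 30494194, plus strand), the ligand of the NKG2A receptor of natural killer cells, had 5542, 3880 and 3769 normalized counts in the Control sh samples, against 3882, 4730 and 4836 in the VprBP sh samples. Its groups overlapped, the log2 fold change was 0.03 with an approximate 95% interval from -0.27 to 0.33 (adjusted p = 0.872 from edgeR), and its sign turned with edgeR's TMM factors, to -0.07.

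Within a sample, a share of counts does not depend on the scaling. HLA-E made up 14.7%, 15.2% and 14.7% of the counts of HLA-B, HLA-C and HLA-E in Control sh and 28.2%, 26.0% and 26.5% in VprBP sh, a difference of 12.04 percentage points without overlap. Other heavy chains were not counted in this total. The exact two-sided permutation test gave p = 0.1, the smallest possible, and 0.133 after adjustment over the 4 within-sample measures tested. HLA-B went from 34.1% ± 1.75 to 22.2% ± 0.824 of this total (SD, n = 3), and HLA-C took 51.0% ± 1.61 and 50.9% ± 1.95.

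**Figure D1:**
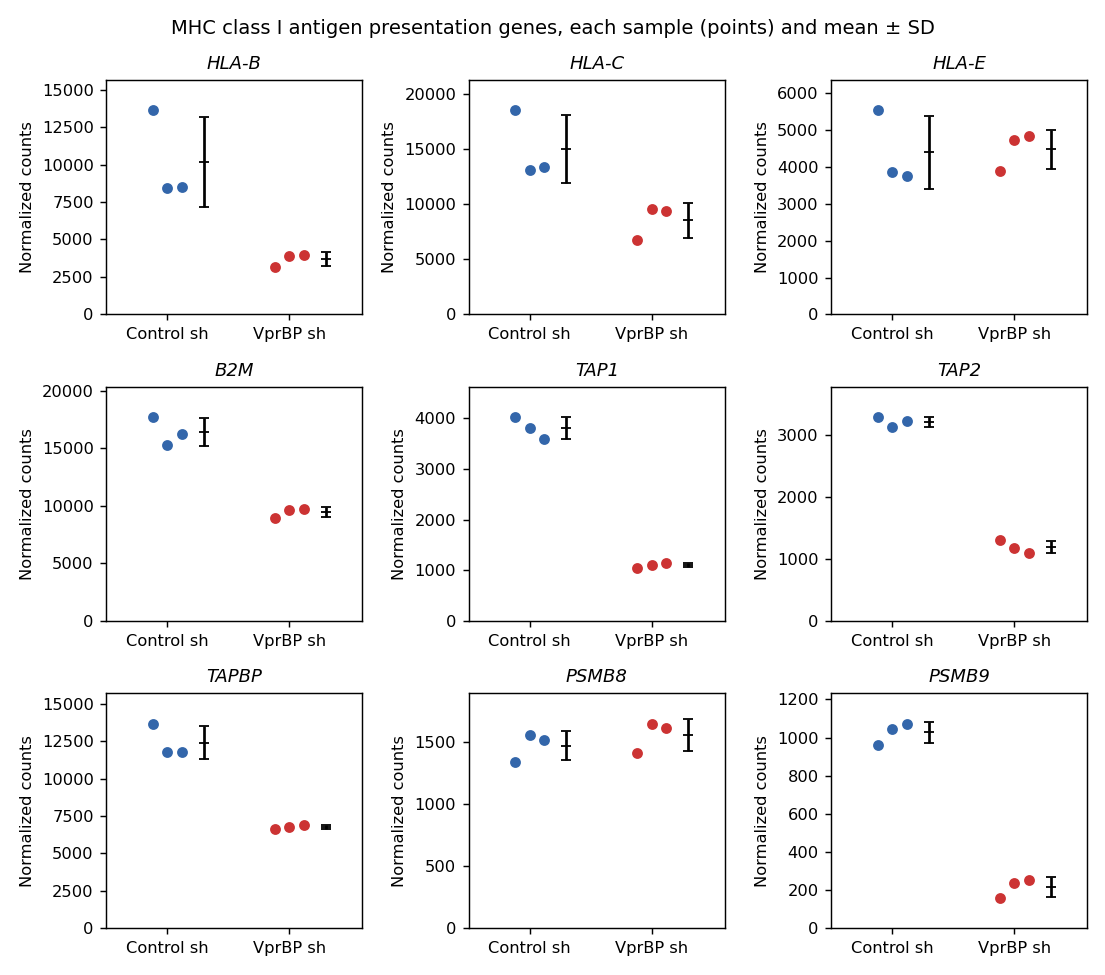
Normalized counts (vertical axis of each panel, starting at 0) of the 9 genes in the 3 Control sh samples (blue points, replicates 1 to 3 from left to right) and the 3 VprBP sh samples (red points), with the mean and SD beside them in black. The groups do not overlap for HLA-B, HLA-C, B2M, TAP1, TAP2, TAPBP and PSMB9, and they overlap for HLA-E and PSMB8.

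B2M (ENSG00000166710.23, chromosome 15, 44711358 to 44718851, plus strand), without which heavy chains do not reach the cell surface, had 17696, 15320 and 16274 normalized counts in the Control sh samples, against 8972, 9643 and 9729 in the VprBP sh samples. All VprBP sh samples were lower than all Control sh samples, at 9448 ± 414 against 16430 ± 1195, and the log2 fold change of -0.80 with a standard error of 0.08 (adjusted p = 1.71e-05 from edgeR) corresponds to 1.74-fold, below the threshold for a call. Of all genes tested 25.7% had a lower log2 fold change, so a decrease of this size was common in these samples.

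The transporter subunits were both called lower. TAP1 (ENSG00000168394.12, chromosome 6, 32845209 to 32853816, minus strand) had 4020, 3800 and 3592 normalized counts in the Control sh samples, against 1055, 1109 and 1144 in the VprBP sh samples, and TAP2 (ENSG00000204267.17, 32821833 to 32838739, minus strand) had 3284, 3124 and 3218 and then 1300, 1181 and 1101. The replicates of each group were close together and far from those of the other. The log2 fold changes were -1.79 for TAP1 (standard error 0.08, adjusted p = 5.66e-08 from edgeR) and -1.43 for TAP2 (standard error 0.09, adjusted p = 3.52e-07 from edgeR). TAP1 thus had the smallest p-value of the 9 genes, and it ranked 888 among all genes tested. TAPBP (ENSG00000231925.13, 33299694 to 33314254, minus strand), which holds empty class I molecules next to the transporter, had 13669, 11761 and 11774 normalized counts in the Control sh samples, against 6612, 6791 and 6899 in the VprBP sh samples. The groups did not overlap, and at a log2 fold change of -0.87 with a standard error of 0.09 (adjusted p = 1.02e-05 from edgeR) the gene was not called.

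The immunoproteasome subunits diverged. PSMB9 (ENSG00000240065.8, chromosome 6, 32844136 to 32859851, plus strand), whose start lies next to that of TAP1, had 962, 1047 and 1071 normalized counts in the Control sh samples, against 155, 236 and 251 in the VprBP sh samples. This was the largest decrease of the 9 genes, at a log2 fold change of -2.25 with a standard error of 0.17 (adjusted p = 1.47e-06 from edgeR), and 12.6% of all genes tested had a lower log2 fold change. PSMB8 (ENSG00000204264.12, 32840717 to 32844679, minus strand), which lies between TAP2 and TAP1, had 1338, 1558 and 1522 normalized counts in the Control sh samples, against 1415, 1649 and 1615 in the VprBP sh samples. The groups overlapped and the log2 fold change was 0.08 with an approximate 95% interval from -0.11 to 0.27 (adjusted p = 0.455 from edgeR), at the median of all genes tested, which was also 0.08. The sign of this value turned to -0.01 with TMM factors, which put the median of all genes at -0.01, and scaling by library size put it at 0.29 with the median at 0.29.

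**Figure D2:**
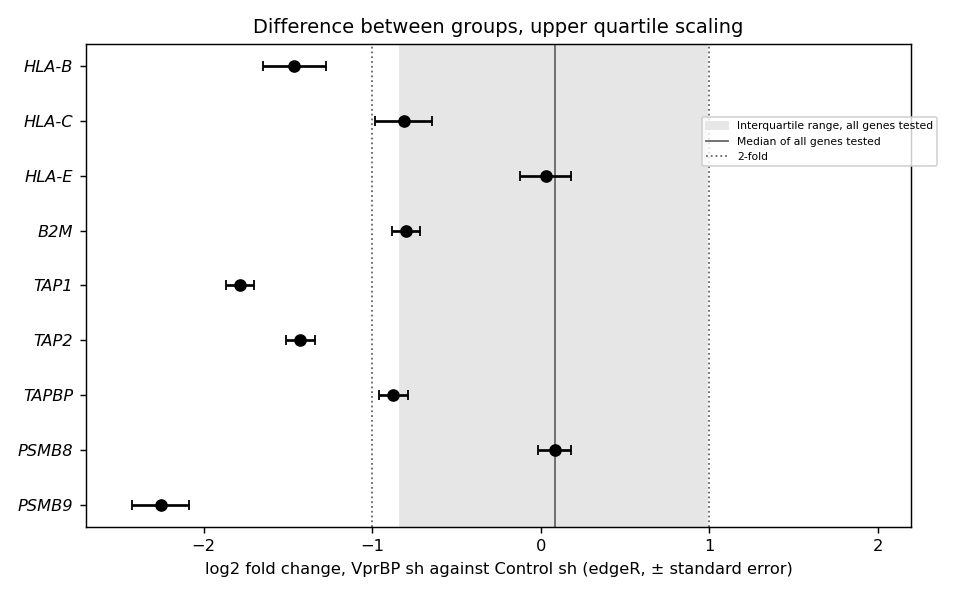
Log2 fold change of VprBP sh against Control sh from edgeR (horizontal axis) for the 9 genes, with bars of 1 standard error. The shaded band is the interquartile range of all genes tested, from -0.83 to 0.99, the solid line their median of 0.08 and the dotted lines 2-fold. PSMB9, TAP1, HLA-B and TAP2 lie beyond 2-fold, TAPBP at the edge of the band, and HLA-E and PSMB8 near the median, where their sign depends on the scaling.

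Each immunosubunit was set against the constitutive subunit whose place it takes, as a ratio of counts within each sample. The ratio of PSMB9 to PSMB6 on the log2 scale was -0.89, -1.01 and -1.07 in Control sh and -3.22, -2.76 and -2.60 in VprBP sh, which is 3.66-fold lower in VprBP sh. The samples of the groups lay far apart, although the exact permutation test cannot go below its p of 0.1 (0.133 after adjustment over 4 measures). PSMB6 itself had 2047 ± 240 and 1523 ± 77.8 normalized counts (log2 fold change -0.43, adjusted p = 0.00347 from edgeR) without a call. For PSMB8 to PSMB5 the log2 ratio was -0.72, -0.92 and -0.90 in Control sh and -1.06, -0.78 and -0.78 in VprBP sh, with overlapping groups and an exact permutation p of 0.8. For PSMB10, which lies outside the MHC, against PSMB7 it was -1.88, -1.91 and -1.84 in Control sh and -2.76, -1.94 and -2.02 in VprBP sh (exact permutation p = 0.1, adjusted 0.133). Most of that difference came from VprBP sh replicate 1, and without it the mean difference was -0.10 in place of -0.36. PSMB10 itself was at 762 ± 25.1 and 538 ± 136 normalized counts (log2 fold change -0.50, adjusted p = 0.0237 from edgeR). PSMB7 was at -0.17 (adjusted p = 0.0590) and PSMB5 at 0.10 (adjusted p = 0.429), and none of them was called.

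**Figure D3:**
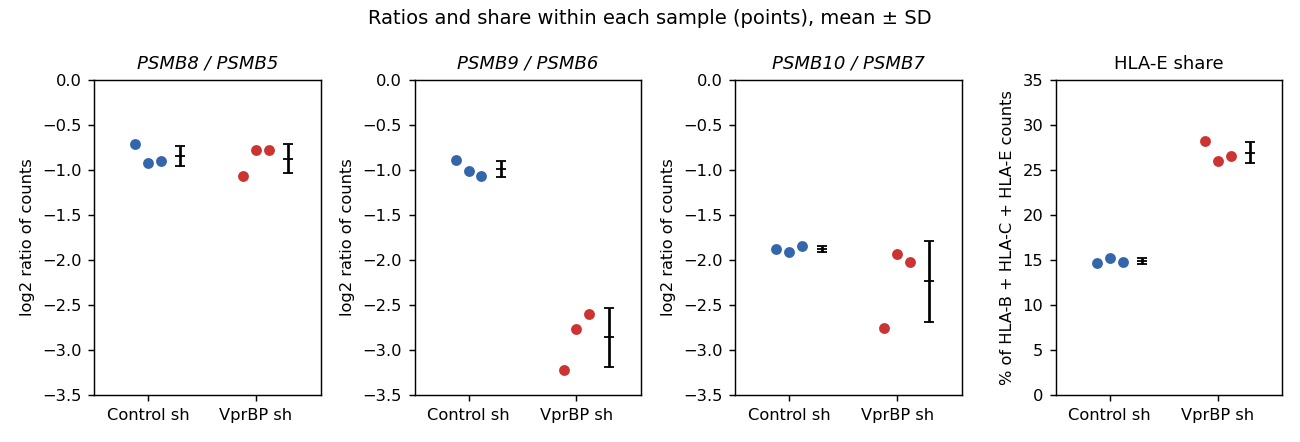
Log2 ratios of estimated counts of PSMB8 to PSMB5, PSMB9 to PSMB6 and PSMB10 to PSMB7, and the share of HLA-E in the counts of HLA-B, HLA-C and HLA-E in percent, in each Control sh (blue) and VprBP sh (red) sample, replicates 1 to 3 from left to right, with mean ± SD in black. The ratio of PSMB9 to PSMB6 and the share of HLA-E separate the groups widely, PSMB8 to PSMB5 does not, and PSMB10 to PSMB7 is lowest in VprBP sh replicate 1.

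Levels of different genes were compared per length, as TPM, which scales counts by the depth of the sample and by the exon length of the gene in GENCODE 44. This length joins all annotated exons of a gene, with 4623 bases for HLA-B and 2507 for HLA-C. The order between genes therefore depends on which transcripts are annotated. In Control sh the order was HLA-C (1054 ± 214 TPM, SD, n = 3), B2M (926 ± 66.2), HLA-B (387 ± 113), TAPBP (328 ± 29.02), HLA-E (265 ± 59.8), TAP1 (141 ± 8.14), PSMB8 (74.4 ± 6.03), TAP2 (54.5 ± 1.26) and PSMB9 (54.1 ± 2.99). HLA-C and B2M overlapped in their sample ranges, as did HLA-B, TAPBP and HLA-E with one another, and TAP2 and PSMB9. In VprBP sh the order was HLA-C (649 ± 112 TPM), B2M (577 ± 16.1), HLA-E (292 ± 29.4), TAPBP (194 ± 0.770), HLA-B (152 ± 15.9), PSMB8 (85.4 ± 5.81), TAP1 (44.4 ± 0.978), TAP2 (22.0 ± 2.27) and PSMB9 (12.2 ± 2.74), and only HLA-C and B2M overlapped. HLA-E thus lay above HLA-B and TAPBP in every VprBP sh sample, whereas in Control sh its range overlapped both, and PSMB8 lay above TAP1 in VprBP sh and below it in Control sh.

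Overlapping annotation and shared sequence limit some of these counts. The span of PSMB9 in the deposited table covers TAP1 and the 5′ part of PSMB8, which lie on the opposite strand, and PSMB8-AS1, on the strand of PSMB9, overlaps all 3 genes with 83 to 145 counts in a sample. A strand setting of the counting is not given in the sources used here. TAP2 overlaps ENSG00000250264 on its own strand, with 129 to 343 counts. Stretches of 50 bases, the read length of the study, in the annotated transcripts were looked for in transcripts of other genes on either strand. For HLA-B 42.3% also occur in another gene, 27.9% in DHFRP2 and 11.8% in the pseudogene ENSG00000271581, but 1.59% in HLA-C. ENSG00000271581 lies on the opposite strand to HLA-B and had at most 9 counts in a sample. Whether matches on the opposite strand limit the counts depends on the strand setting. For HLA-C the share was 5.79%, for HLA-E 5.19%, for TAP1 12.8%, for TAP2 18.5%, for TAPBP 21.8%, for PSMB8 14.9%, for PSMB9 2.84% and for B2M 0%. These shares refer to the reference sequence, not to the HLA alleles of the cells, which were not analysed here, and their part in the results was not tested.

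Genes around the members on chromosome 6 were called in both directions. Between 29 and 34 Mb, 119 protein-coding genes were tested, of which 23 were called higher and 20 lower. Over all genes tested these shares were 24.5% and 22%. Without the members the median log2 fold change was 0.19 over 111 genes. Within the class II region, TAP2, TAP1 and PSMB9 were called lower on either side of PSMB8, which was not called.

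**Figure D4:**
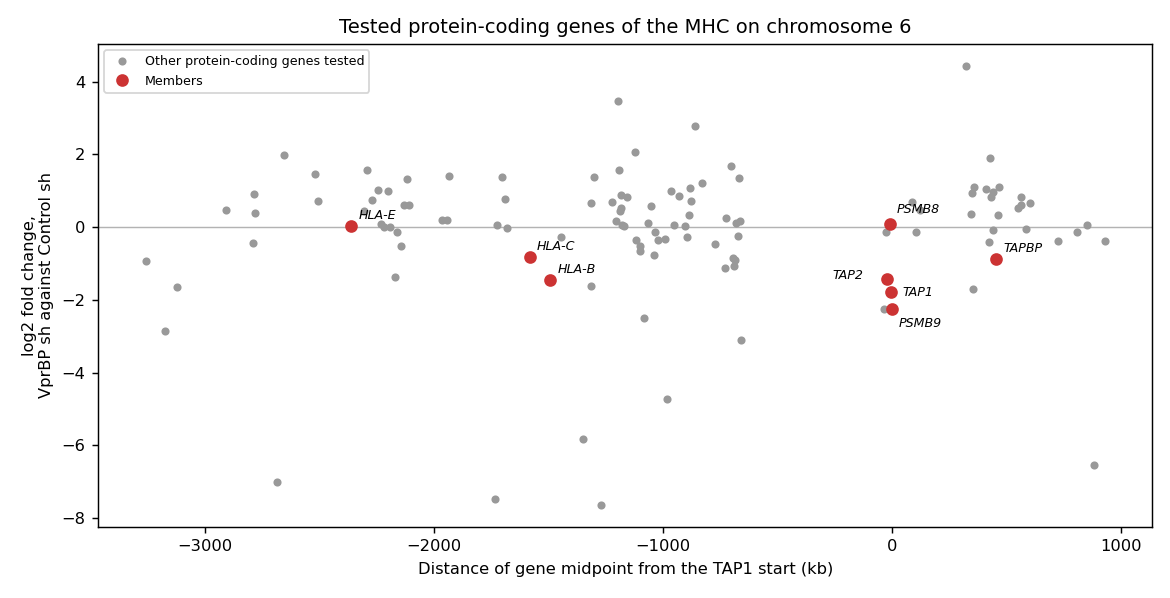
Log2 fold change of VprBP sh against Control sh (vertical axis) of the tested protein-coding genes of the MHC region by the distance of their midpoint from the start of TAP1 in kb (horizontal axis). Members are red and other genes are grey. TAP2, TAP1 and PSMB9 lie below 0 next to PSMB8 near 0, and grey points lie on both sides of 0 along the region.

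Of 15 partners in peptide loading and trimming, 4 were called lower and 0 higher, against 22% and 24.5% of all genes tested. Their median log2 fold change was 0.07 against 0.08 for all genes tested. CALR and PDIA3, the chaperone calreticulin and the oxidoreductase that sit with tapasin in the loading complex, went from 34135 ± 1560 to 16485 ± 1442 and from 16883 ± 417 to 6971 ± 320 normalized counts, with log2 fold changes of -1.05 and -1.28 (adjusted p = 3.79e-06 and 3.38e-07 from edgeR). Scaling by library size alone put CALR at -0.84, under the 2-fold of a call, which left 3 of the 15 called lower. ERAP2, an aminopeptidase that trims peptides in the endoplasmic reticulum, was lower, at -1.81 on the log2 scale (299 ± 28.2 and 85.2 ± 12.02 normalized counts, adjusted p = 4.82e-06), and TAPBPL, a peptide editor related to tapasin, at -1.43 (354 ± 15.3 and 130 ± 32.5, adjusted p = 5.53e-05). Of 8 partner subunits of the proteasome, PA28 activator subunits and assembly factors, 1 was called lower and 0 higher, with a median of -0.30. This was POMP, the proteasome assembly chaperone, at -1.11 (2547 ± 302 and 1180 ± 169 normalized counts, adjusted p = 2.65e-05 from edgeR), and with scaling by library size it was not. Of 7 other class I and class I-like chains tested, 4 were called lower and 2 higher, and their median was -1.64. HLA-F, a less variable class I chain, was at 1095 ± 289 and 349 ± 66.5 normalized counts (log2 fold change -1.64, adjusted p = 4.86e-05), whereas HFE, the class I-like regulator of iron uptake, was at 307 ± 40.3 and 840 ± 53.0 (1.45, adjusted p = 3.85e-06). FCGRT, the heavy chain of the neonatal Fc receptor, had 1427, 1201 and 1476 counts in the Control sh samples, against 0, 1 and 0 in the VprBP sh samples, and CD1D, which presents lipids, had 90, 170 and 206 counts against 0 in every VprBP sh sample, at least 55.3-fold lower against a floor of 3 counts per sample. PROCR, the endothelial protein C receptor, had 1240, 1305 and 1612 counts against 4, 5 and 9. AZGP1, a secreted class I-like glycoprotein, had 14, 2 and 6 counts against 17693, 19419 and 26632.

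Of 24 transcriptional regulators of class I genes tested, 5 were called higher and 6 lower, against 24.5% and 22% of all genes tested. Their median log2 fold change was -0.11. IRF1, an interferon regulatory factor known to bind class I promoters, had 3209, 4261 and 4073 normalized counts in the Control sh samples, against 830, 1119 and 1172 in the VprBP sh samples. Its log2 fold change was -1.89 with a standard error of 0.15 (adjusted p = 2.48e-06 from edgeR). NLRC5, the class I transactivator, had 604, 612 and 599 normalized counts and then 410, 532 and 503, a log2 fold change of -0.33 with a standard error of 0.12 (adjusted p = 0.0295 from edgeR) and no call. CIITA, the transactivator of class II genes, was lower at 104 ± 9.51 and 26.5 ± 16.5 normalized counts (-1.95, adjusted p = 0.00128), as was the NF-kappaB subunit RELB (-1.80, adjusted p = 5.46e-05). SUZ12, a subunit of the polycomb repressive complex that silences class I genes in some tumours, was lower (-1.51, adjusted p = 8.79e-07), but the catalytic subunit EZH2 was higher, at 628 ± 35.1 and 2309 ± 404 normalized counts (1.88, adjusted p = 8.33e-07). The increases also took in NFYC and NFYB, subunits of the factor that binds CCAAT boxes (2.05 and 1.21, adjusted p = 4.51e-08 and 1.78e-05), and RFXANK, a subunit of the RFX complex of class I and II promoters (1.80, adjusted p = 3.64e-07). RFX5, another RFX subunit, was at 0.64 (adjusted p = 0.000103) without a call.

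Of 12 interferon receptor chains, their kinases and inhibitors, 1 was called higher and 2 lower, with a median of 0.16. Of all genes tested, 24.5% were called higher and 22% lower. TYK2, a kinase bound to the type I interferon receptor, went from 1990 ± 18.03 to 9954 ± 1220 normalized counts (log2 fold change 2.32, adjusted p = 4.57e-08 from edgeR). The inhibitors SOCS3 and SOCS1 were lower, at 1631 ± 87.0 and 116 ± 6.03 (-3.81, adjusted p = 3.21e-09) and at 294 ± 41.8 and 130 ± 2.73 (-1.17, adjusted p = 5.74e-05). With scaling by library size alone SOCS1 was at -0.96 and not called.

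**Figure D5:**
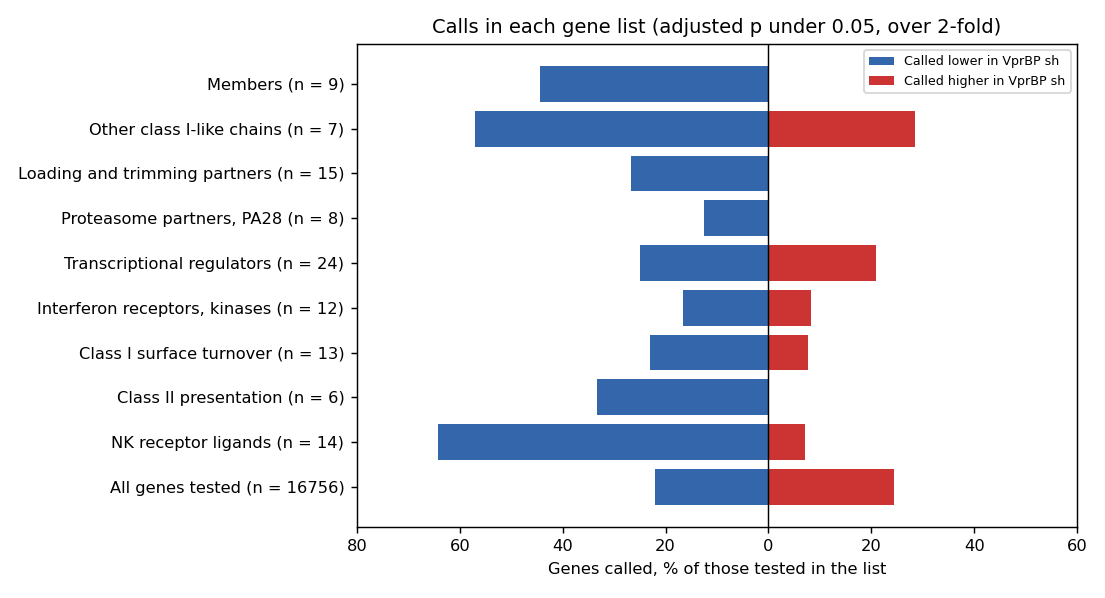
Share of the tested genes of each list that was called lower (blue, to the left) or higher (red, to the right) in VprBP sh, in percent, with all genes tested in the bottom bar (22% lower and 24.5% higher). Members, loading partners, proteasome partners and class II genes have calls to the left alone, and the other lists have calls on both sides.

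For HLA-B, B2M, TAP1 and PSMB9, the genes most like each in their course over the 6 samples were found by the root mean square difference of centred log2(normalized count + 1) among 12132 genes. These were MFSD10, SHISA5 and SBF2 for HLA-B (0.06 to 0.08), MED13L, ARL2 and IKBKB for B2M (0.03 to 0.04), SNRPB, DNAAF9 and AFAP1 for TAP1 (each 0.04), and EPB41L1, UPK2 and KLF10 for PSMB9 (0.06 to 0.09). Of the members, TAPBP was at rank 11 for B2M with 0.05, TAP2 at rank 357 for TAP1 with 0.21, and TAP1 at rank 290 for PSMB9 with 0.32. With 3 samples per group this measure mostly reflects the size of the difference between groups.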

How the data were processed

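Per the labels and the methods of the study, RNA from 3 Control sh and 3 VprBP sh samples was sequenced, and the authors aligned the reads to hg38 and quantified them per gene in Partek Flow. The deposited values are estimated counts, not normalized, with genes kept from a sum of 10 over the 6 samples, and 66.8% of values are whole within 0.005. The labels name a SMARTER kit and the methods another, stranded kit, so the strandedness of the counts is unsettled.

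The estimated counts were rounded, filtered with filterByExpr (minimum count 10), scaled by the upper quartile (0.75) and tested with edgeR 4.0.16 (quasi-likelihood test, R 4.3.3), with Benjamini-Hochberg adjustment over 16756 genes. Standard errors were derived from the F statistics. limma 3.58.1 and DESeq2 1.42.0 served as alternatives, and ratios were tested with Python 3.11.15. The test was checked on simulated data with few changed genes and independent replicates, a setting unlike these samples. TPM used exon lengths of GENCODE 44, and promoter windows came from RefSeq (GRCh38.p14).

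Members, gene lists and tests were chosen with earlier results of these data known. Named were all members, DCAF1, PSMB5, PSMB6, PSMB7, PSMB10, NLRC5, IRF1, RFX5, CIITA, EZH2, for each list up to 4 called genes with the largest change in each direction, marker genes as counts, and for 4 members the 3 most similar genes among genes averaging 100 normalized counts or more. Some genes that this rule names are not reported here.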

Additional observations from a re-analysis of the deposited data

How the results depend on the processing

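The count of members called lower was 4 and of members called higher 0 under all 16 alternatives. Leaving out each sample in turn gave log2 fold changes from -1.59 to -1.20 for HLA-B, -0.91 to -0.64 for HLA-C, -0.85 to -0.74 for B2M, -1.83 to -1.75 for TAP1, -1.49 to -1.37 for TAP2, -0.92 to -0.80 for TAPBP, -2.39 to -2.08 for PSMB9 and 0.02 to 0.15 for PSMB8. HLA-E ran from -0.076 to 0.23 and so changed sign, and it was -0.071 with TMM factors, -0.10 with DESeq2 and -0.12 with replicates 2 and 3 summed as 1 sample. PSMB8 was -0.014 with TMM factors and -0.037 with DESeq2. The value of -1.20 for HLA-B was without Control sh replicate 1, its highest sample.

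With at least 10 counts required in every sample, 4690 genes were called in place of 7778, the class I-like chains had 1 call in each direction and class II genes 1 lower, whereas without a filter class II genes had 4 lower and 1 higher. The requirement of 10 counts also left 6 natural killer ligands called lower in place of 9, and 5 regulators in place of 6. Proteasome partners had 0 calls with library size alone (where 60.1% of all calls were higher, against 52.7%) and with glmTreat, a test against 2-fold. Interferon receptors then had 1 lower with either setting, and regulators 3 higher with glmTreat. CALR lost its call with library size alone and with glmTreat, so that 3 loading partners were called lower in place of 4, and NFYB lost its call with glmTreat. Regulators had 4 higher in place of 5 with TMM factors, DESeq2 or no filter, and 5 lower in place of 6 with glmTreat. Leaving out samples gave 4 to 5 regulators higher and 5 to 7 lower. ULBP1 left the natural killer ligands 0 higher with TMM factors, DESeq2, glmTreat and summed replicates, and 0 to 1 on leaving out samples.

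The replicate numbers did not pair the samples, with correlations of deviations of -0.17, -0.05 and -0.12 for the numbers 1 to 3. With the replicate block 7686 genes were called, and TAP1 was at -1.78, PSMB9 at -2.28 and HLA-B at -1.43. No call of a member changed.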

Other observations

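Genes next to the class I pathway at the cell surface were taken from the same fit. Of all genes tested, 22% were called lower and 24.5% higher, which is the background for the counts of calls below. Of 14 tested ligands of natural killer cell receptors, 9 were called lower and 1 higher. Their median log2 fold change was -1.81 against 0.08 for all genes tested. With at least 10 counts required in every sample, 6 ligands were called lower, and 35.8% of all genes tested were called in either direction. CLEC2B, NCR3LG1 and RAET1L, with fewer than 10 counts in every VprBP sh sample, had passed the main filter through Control sh alone. MICB, a stress-induced ligand of NKG2D, went from 1012 ± 11.8 to 17.4 ± 6.11 normalized counts (SD, n = 3, log2 fold change -5.83, adjusted p = 7.56e-09 from edgeR). CLEC2B, a ligand of NKp80, had 334, 403 and 460 counts in the Control sh samples, against 3, 7 and 7 in the VprBP sh samples, and NCR3LG1, the ligand of NKp30, had 94, 91 and 128 against 6 in each. RAET1L, another NKG2D ligand, had 28, 12 and 21 counts against 1 in each VprBP sh sample. ULBP1, also an NKG2D ligand, was called higher at 46.0 ± 16.4 and 94.5 ± 16.2 normalized counts (1.05, adjusted p = 0.00671), and the call was lost with TMM factors.

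Of 13 genes of class I surface turnover, 3 were called lower and 1 higher, with a median of -0.09. Among them, the ubiquitin ligases MARCHF1 and MARCHF9 were at log2 fold changes of -1.93 and -1.45 (adjusted p = 5.67e-05 and 1.60e-05 from edgeR), and IRGQ was at 1.23 (adjusted p = 5.92e-06). Class II genes were scarce, with 6 of 15 tested, 2 called lower and 0 higher, and a median of -0.35. These were CTSS, a protease that processes the invariant chain (517 ± 48.0 and 24.3 ± 8.78 normalized counts, -4.41, adjusted p = 8.30e-08), and HLA-DOB, a modulator of class II peptide loading, with 12, 21 and 25 counts against 3, 7 and 3.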
